A study of Mus musculus with 5 samples.

Results

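The binding of Pcgf6 was examined at the starts of 40 imprinted protein-coding genes, taken from a list of imprinted loci and found by symbol among 22359 mouse protein-coding promoters. All 40 were found. Pcgf6 is a Polycomb group ring finger protein of a variant PRC1 complex, and the study asked where it sits in the genome of mouse embryonic stem cells (ESCs). CCE, a mouse ESC line grown in serum with LIF, was fixed with a pair of cross-linkers (paraformaldehyde and disuccinimidyl glutarate) and had no other treatment. ChIP-seq was made from it with the Pcgf6 antibody sc-160649 of Santa Cruz (2 replicates) and with ab48010 of Abcam (2 replicates), and 1 Input library carried no antibody. All 5 libraries come from this single line, no Pcgf6-depleted cells were among them, and every comparison is against the same Input.

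An imprinted gene is expressed mainly from the copy inherited from 1 parent, the other copy being silenced by DNA methylation laid down in the germ line at a differentially methylated region (DMR), by a noncoding RNA that starts at such a region, or by histone marks. Imprinted genes lie in clusters and many set the growth of the embryo and the placenta, with Igf2 as a growth factor and Igf2r as the receptor that removes it. In ESCs the zinc finger protein Zfp57 keeps germline DMRs methylated by binding the letters TGCCGC when they are methylated. The Pcgf6 complex is known to hold the factors Mga and Max, which bind the E-box CACGTG, and E2f6, whose sites carry the core GCGGGA. The signal does not tell the maternal from the paternal copy, so each value below is the sum over both copies.

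The 250 bases before the start of 3 genes are shown because they set the imprinted promoter with the highest ChIP signal beside a pair of starts at maternally methylated germline DMRs. Sequences were read from NCBIM37 (mm9) along the direction of the gene. Capitals mark the E-box CACGTG, the E2f core GCGGGA with its complement TCCCGC, and the Zfp57 letters TGCCGC with their complement on the other strand, GCGGCA. Both strands were searched, and occurrences of different motifs were allowed to share bases.
Igf2r, chr17:12962531-12962780, minus strand: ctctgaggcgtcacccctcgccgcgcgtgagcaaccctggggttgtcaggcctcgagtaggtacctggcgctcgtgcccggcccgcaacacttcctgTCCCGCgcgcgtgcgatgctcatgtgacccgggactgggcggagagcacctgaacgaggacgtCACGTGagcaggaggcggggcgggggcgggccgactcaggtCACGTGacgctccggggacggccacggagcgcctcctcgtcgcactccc
Plagl1, chr10:12810388-12810637, plus strand: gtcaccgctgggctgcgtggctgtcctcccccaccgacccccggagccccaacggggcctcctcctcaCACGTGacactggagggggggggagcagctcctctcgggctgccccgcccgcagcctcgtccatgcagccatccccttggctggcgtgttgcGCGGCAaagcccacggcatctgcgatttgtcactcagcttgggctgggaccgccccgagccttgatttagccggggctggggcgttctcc
Mest, chr6:30687803-30688052, plus strand: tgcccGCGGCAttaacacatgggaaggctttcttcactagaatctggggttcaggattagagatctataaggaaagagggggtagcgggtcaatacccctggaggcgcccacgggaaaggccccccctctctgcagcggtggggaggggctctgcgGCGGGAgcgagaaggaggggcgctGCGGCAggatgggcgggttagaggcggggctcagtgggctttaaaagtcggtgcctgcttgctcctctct
The Igf2r stretch held 2 copies of CACGTG, which begin 90 and 49 bases before the start, and 1 TCCCGC that begins 153 bases before it. Plagl1, which codes for a zinc finger factor that restrains growth, held 1 CACGTG and 1 GCGGCA. Mest, a gene for a hydrolase-like protein active in mesoderm, held 2 copies of GCGGCA and 1 GCGGGA but no CACGTG.

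The files hold 22801077 fragments of Input, 2289605 and 2299487 with Santa Cruz, and 2761103 and 2849850 with Abcam. The replicates of an antibody were largely the same fragments (87.8% of Santa Cruz replicate 1 were found in replicate 2, and 88.0% with Abcam), whereas 1.30% of Santa Cruz replicate 1 were found in Abcam replicate 1. Each antibody therefore counts as 1 sample, and fragments were joined to 2564966 for Santa Cruz, 3163041 for Abcam and 22284183 for Input, at most 1 per position. Within 2 kb of an imprinted start, the median gene had 77.5 Input fragments beside 9 of Santa Cruz and 9.5 of Abcam. The start of a gene is the one that the largest number of its annotated coding transcripts use, and ties went to the most upstream. The ChIP/input ratio is the share of a ChIP library's fragments in that window over the share of Input, given with an exact Clopper-Pearson 95% interval that covers counting error only. A window passed the threshold where a one-sided exact binomial test, adjusted after Benjamini and Hochberg over 22359 promoters, gave a p under 0.05. Such tests compare the fragments of 2 libraries and not repeated experiments.

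Igf2r was the single imprinted gene with more Pcgf6 ChIP fragments than Input past the threshold, and it was so with both antibodies. This is 1 of 40 with Santa Cruz, where 0.635% of all promoters passed, and 1 of 40 with Abcam, where 1.11% passed (0.474% with both). The other 39 did not pass with either antibody. At an unadjusted p under 0.05, 2 of 40 were higher with Santa Cruz (Igf2r and Tssc4, background 5.06%) and 3 of 40 with Abcam (Igf2r, Ascl2 and Dlk1, background 6.28%). A ratio of at least 1.5 with both antibodies was found for Igf2r alone, while 6.18% of all promoters had one. At a median of 9 fragments a window, moderate enrichment was not detectable gene by gene, so a gene that did not pass is not shown to lack Pcgf6.

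**Figure D1:**
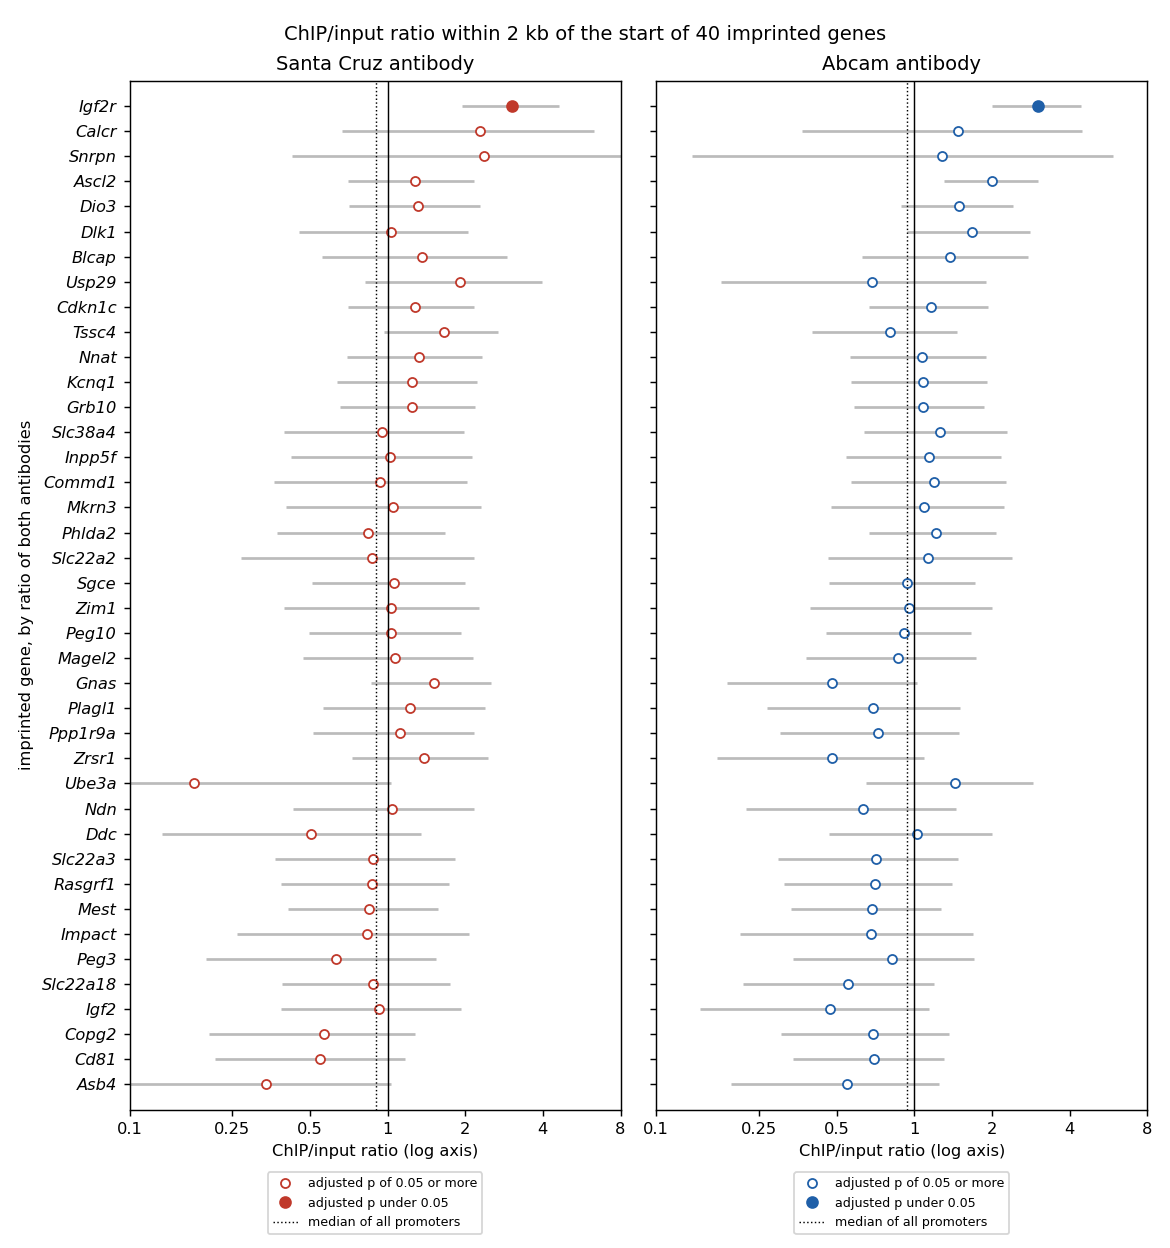
ChIP/input ratio (log axis) within 2 kb of the start of each of the 40 imprinted genes with the Santa Cruz (left) and Abcam (right) antibody, points as ratios and bars as 95% counting intervals cut at the axis ends, sorted by the ratio of both antibodies. Filled points have an adjusted p under 0.05 and are Igf2r in both panels, at 3.03 and 3.01, and 1 other interval, that of Ascl2 with Abcam, lies above 1.

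Igf2r (ENSMUSG00000023830.7, chr17:12875272-12962530, minus strand) codes for the mannose 6-phosphate receptor that carries the growth factor Igf2 to lysosomes, and its paternal copy is listed as the silenced one. Scaled by the depth sum of each file and divided by Input, its depth was 3.19 and 3.07 in the Santa Cruz replicates and 3.09 and 3.17 in the Abcam replicates. All 4 files lay close together and above every other imprinted gene. The window held 31 Santa Cruz fragments, 38 Abcam fragments and 89 Input fragments. The ratio was 3.03 with Santa Cruz (1.94 to 4.60, adjusted p = 0.000426, exact binomial test) and 3.01 with Abcam (2.0 to 4.44, adjusted p = 3.62e-05, exact binomial test). The Abcam to Santa Cruz comparison gave a p of 1 by a two-sided exact binomial test. Ordered by the ratio of both antibodies together, which was 3.02 (2.17 to 4.18), Igf2r stood at place 472 of all promoters, an order that includes windows of very few Input fragments.

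The Igf2r signal lay within about 1 kb of the start. In 500-bp bins along the gene, the bin that ends at the start held 11 Santa Cruz, 17 Abcam and 17 Input fragments, which is 8.58, 10.8 and 1.53 fragments per kb and 1000000 library fragments. The bin that follows the start held 6, 10 and 13 fragments, and the bin centred at -750 bp held 6, 3 and 8. The bins centred 1750 bp to each side held at most 1 fragment of either antibody. A peak, called as a 600-bp window with a p under 1e-05 by an exact Poisson test against the local Input, spanned chr17:12962201-12963400 with Santa Cruz (15 fragments where 1.28 were expected, exact p = 9.84e-12) and chr17:12961851-12963250 with Abcam (21 where 1.65 were expected, p = 1.54e-16). The p of a peak here and below is the smallest among its windows and was not adjusted for the number of windows scanned. Both peaks span the 250 bases shown above with the pair of CACGTG. The Abcam summit, at -120 bp from the start, lay within them, and the Santa Cruz summit, at -320 bp, lay upstream of them. A window of 1 kb each side gave ratios of 4.34 and 4.65, and a window of 10 kb each side gave 1.24 (adjusted p = 0.903) and 1.48 (adjusted p = 0.164), which no longer passed the exact test.

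**Figure D2:**
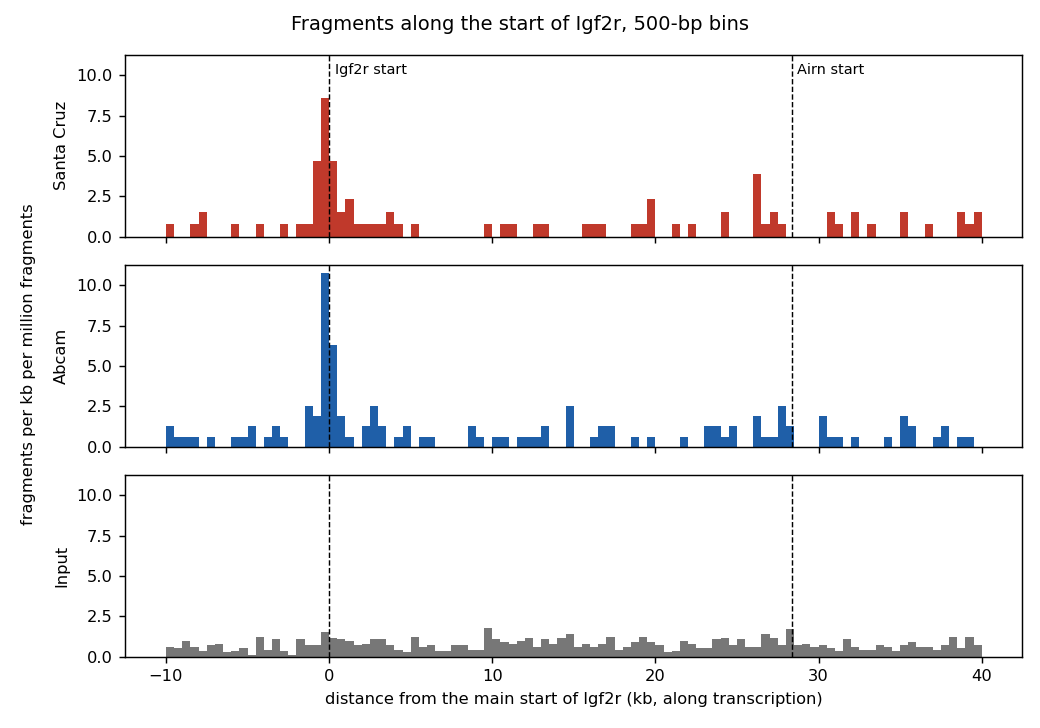
Fragments per kb and 1000000 library fragments in 500-bp bins from 10 kb before to 40 kb after the Igf2r start (horizontal axis, kb along transcription) for the joined Santa Cruz, Abcam and Input libraries, dashed lines marking the starts of Igf2r and Airn. The bins beside the Igf2r start reach 8.58 and 10.8 with the antibodies against 1.53 in Input, and no rise of that height is drawn at Airn. A lower bin centred at 26250 bp, near the Airn start, reaches 3.90 and 1.90 against 0.628, on 5 Santa Cruz and 3 Abcam fragments.

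The neighbours of Igf2r in its cluster had ratios near or below 1. Airn, the noncoding RNA that starts 28.353 kb inside Igf2r on the opposite strand and is known to silence its paternal copy, had 6 Santa Cruz, 10 Abcam and 89 Input fragments. Its ratios were 0.586 (0.209 to 1.33) and 0.792 (0.367 to 1.52). A further annotated start of Igf2r, 18252 bp downstream of the main start, gave 0.686 and 0.649. Slc22a2 and Slc22a3, the organic cation transporter genes beside it, gave 0.869 and 0.880 with Santa Cruz, and 1.13 and 0.713 with Abcam. No difference between Igf2r and these neighbours was tested.

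**Figure D3:**
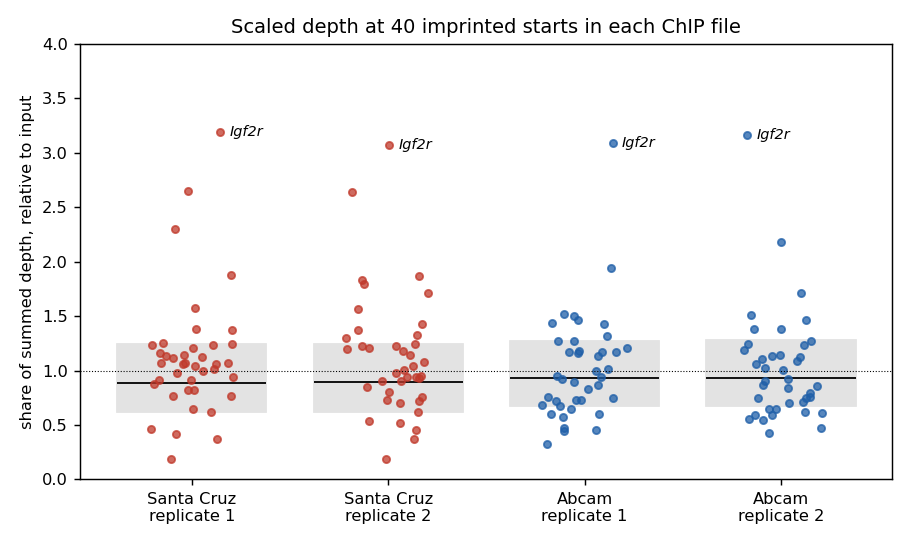
Depth within 2 kb of the 40 imprinted starts as a share of each file's depth sum, divided by the same share in Input (vertical axis), for the 2 replicate files of each antibody, with 1 point per gene. The grey box and line give the quartiles and median of all 22359 promoters, the points of Igf2r lie between 3.07 and 3.19 in all 4 files, and replicates of an antibody share most fragments.

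As a group, the imprinted starts lay close to Input, and with Santa Cruz more of them lay above it than among all promoters. The median ratio was 1.03 with Santa Cruz and 0.947 with Abcam, and over all promoters it was 0.899 and 0.939. With Santa Cruz 24 of 40 had a ratio over 1, against 39.5% of all promoters. With Abcam 19 of 40 did, against 43.3%. A ratio over 1 with both antibodies was found for 13 of 40 (background 23.1%), and a ratio under 1 with both for 10 of 40 (background 36.8%). Summed over their 39 separate windows the genes had 380 Santa Cruz fragments and 2994 Input fragments, a ratio of 1.10 (0.988 to 1.23), and 431 Abcam fragments, a ratio of 1.01 (0.915 to 1.12). Left out after its values were seen, Igf2r changed these to 1.04 (0.931 to 1.17) and 0.953 (0.856 to 1.06).

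Ratios well below 1 were about as rare as elsewhere or rarer, in counts too small to set the imprinted starts apart. The interval lay wholly below 1 for 0 of 40 genes with Santa Cruz and 0 of 40 with Abcam, where 3.38% and 3.14% of all promoters did. A ratio of at most 0.5 was found for 2 of 40 with Santa Cruz (Asb4 and Ube3a, background 13.9%) and for 3 of 40 with Abcam (Igf2, Gnas and Zrsr1, background 10.3%). Input coverage bears on such counts, since the imprinted windows held 11 to 113 Input fragments (median 77.5) and all windows a median of 69, and its part in them was not tested.

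Genes were then grouped by the parental copy listed as silenced. Whether that copy is silent in the CCE cells was not measured here. The 20 genes whose maternal copy is silenced had a median of 1.03 with Santa Cruz and 0.889 with Abcam, and 0 of them passed the threshold. The 18 genes whose paternal copy is silenced had medians of 0.983 and 1.11, and Igf2r was the 1 that passed. Summed, the first group gave 1.05 (0.891 to 1.24) and 0.920 (0.783 to 1.08). The second gave 1.11 (0.947 to 1.30) and 1.14 (0.987 to 1.31), and without Igf2r 0.983 and 1.01. The intervals of both groups overlapped with each antibody. Grb10 and Gnas, whose silenced copy depends on the transcript, were kept apart.

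The 8 genes whose main start lies at a germline DMR (Peg3, Mest, Peg10, Sgce, Plagl1, Nnat, Impact and Zrsr1) all carry the methylation on the maternal copy. None of the 8 passed the threshold, and their median was 1.05 with Santa Cruz and 0.756 with Abcam. Summed, they gave 1.05 (0.809 to 1.35) and 0.768 (0.582 to 0.997), so the Abcam interval ended just below 1. It included the Abcam median of all promoters, 0.939, which is a median of single ratios. No summed ratio was made over all promoters, so the measures are not alike. Gnas was kept out of the 8 because its silenced copy depends on the transcript, although its main start lies 2423 bp from that of Nespas at a germline DMR. Counted in after the values were seen, it moved the sums to 1.12 (0.889 to 1.40) and 0.724 (0.558 to 0.927). That Abcam interval ended below the same all-promoter median of single ratios. Nnat, a small membrane proteolipid of neurons, was the 1 gene among them over 1 with both antibodies, at 1.32 and 1.07. Peg10, a retrotransposon-derived gene of the placenta, and Sgce, the epsilon-sarcoglycan gene that starts 102 bp away in the opposite direction, share most of their window. They had 11 Santa Cruz fragments each and ratios of 1.03 and 1.06, and 12 Abcam fragments each and ratios of 0.909 and 0.939. Mest had 11 fragments with each antibody and 113 in Input, with ratios of 0.846 (0.411 to 1.57) and 0.686 (0.333 to 1.27). Plagl1 had 10, 7 and 71, with ratios of 1.22 (0.563 to 2.38) and 0.695 (0.270 to 1.51). Peg3, a zinc finger gene, and Impact, a regulator of translation, were under 1 with both antibodies, at 0.630 and 0.817 for Peg3 and at 0.835 and 0.677 for Impact.

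After Igf2r, the highest ratios of both antibodies together belonged to Calcr, Snrpn, Ascl2 and Dio3. Calcr, the calcitonin receptor gene, had 5 Santa Cruz, 4 Abcam and 19 Input fragments. Its ratios were 2.29 (0.667 to 6.33) and 1.48 (0.367 to 4.46). The start of Snrpn, which codes for a splicing protein of neurons, had 3, 2 and 11 fragments, with ratios of 2.37 (0.424 to 8.97) and 1.28 (0.138 to 5.87). Both rest on a handful of fragments in windows of low Input, and their intervals span 1. Snrpn has 2 annotated coding transcripts with different starts, and the more upstream start was used. It lies 135063 bp from the other annotated start, which had 6, 8 and 69 fragments and ratios of 0.755 and 0.817. The other start was thus below 1 with both antibodies, and the place of Snrpn among the highest rests on the start used.

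Ascl2 and the Dlk1-Dio3 cluster had the higher Abcam values. Ascl2, a basic helix-loop-helix factor of the trophoblast, had a depth relative to Input of 1.24 and 1.33 in the Santa Cruz files and of 1.94 and 2.19 in the Abcam files. It had 16 Santa Cruz, 31 Abcam and 109 Input fragments. The ratio was 1.28 (0.704 to 2.17) with Santa Cruz and 2.0 (1.30 to 3.01, adjusted p = 0.0755, exact binomial test) with Abcam, short of the threshold. It passed with Abcam in a window of 3 kb each side (2.01, adjusted p = 0.0219 by the same exact test) and not in one of 1 kb (2.39, adjusted p = 0.0933). Dlk1, a membrane protein related to Notch ligands, had depths of 1.07 and 1.20 with Santa Cruz and of 1.43 and 1.71 with Abcam. Its 9 Santa Cruz, 18 Abcam and 76 Input fragments gave ratios of 1.03 (0.453 to 2.06) and 1.67 (0.939 to 2.82). Dio3, the deiodinase that inactivates thyroid hormone, had 15, 21 and 99 fragments and ratios of 1.32 (0.710 to 2.28) and 1.49 (0.886 to 2.41). Together Dlk1 and Dio3 had an Abcam ratio of 1.57 (1.08 to 2.23) and a Santa Cruz ratio of 1.19 (0.743 to 1.83). Neither Ascl2, Dlk1 nor Dio3 differed between the antibodies (unadjusted p = 0.145, 0.252 and 0.741, two-sided exact binomial tests), and a missed threshold does not show that they are equal.

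Peaks gave a similar short list. With Santa Cruz 1 of 40 imprinted genes had a peak within 10 kb of its start (Igf2r, background 2.06%), and with Abcam 2 of 40 (Igf2r and Dlk1, background 3.41%). Igf2r was the 1 with a peak of both antibodies (background 1.36%). The Dlk1 peak of Abcam, chr12:110691051-110691800, held 10 fragments where 1.57 were expected (exact Poisson p = 5.97e-06) and its summit lay at -351 bp from the start. It was lost when either Abcam replicate was left out, and no Santa Cruz peak lay there.

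The lowest ratios of both antibodies together belonged to Asb4, Cd81, Copg2, Igf2 and Slc22a18. Asb4, an ankyrin repeat gene of the Peg10 cluster, had a depth relative to Input of 0.373 and 0.372 in the Santa Cruz files and of 0.680 and 0.622 in the Abcam files. Its 3 Santa Cruz, 6 Abcam and 77 Input fragments gave 0.338 (0.0683 to 1.03) and 0.549 (0.195 to 1.25). Cd81, a tetraspanin gene, had 7, 11 and 111 fragments and ratios of 0.548 (0.215 to 1.17) and 0.698 (0.339 to 1.30). Copg2, a coat protein gene beside Mest, had 6, 9 and 92 fragments and ratios of 0.567 (0.203 to 1.28) and 0.689 (0.305 to 1.37). Each of these intervals includes 1. With the fragments of both antibodies added up, the ratio of Asb4 was 0.455 (0.200 to 0.909), the 1 of 40 whose interval lay wholly below 1 (background 5.61%). Igf2r and Ascl2 were the 2 of 40 wholly above 1 (background 4.97%), and Ascl2 had 1.68 (1.17 to 2.38). Igf2 had 8, 5 and 75 fragments, with ratios of 0.927 (0.386 to 1.92) and 0.470 (0.148 to 1.15), so the growth factor gene lay below its receptor gene with both antibodies. These values are of the main start of Igf2, and its place among the lowest was taken there. The other Igf2 starts gave 0.269, 0.290 and 0.589 with Santa Cruz and 0.726, 1.10 and 1.07 with Abcam. Slc22a18, a transporter gene of the Kcnq1 cluster, had 9, 7 and 89 fragments and ratios of 0.879 (0.389 to 1.74) and 0.554 (0.217 to 1.19).

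In the Kcnq1 cluster on chromosome 7, 7 genes were measured and none passed the threshold. Their summed ratio was 1.11 (0.878 to 1.38) for Santa Cruz, and for Abcam it was 1.09 (0.879 to 1.33). Cdkn1c, the cyclin-dependent kinase inhibitor p57, had 16 Santa Cruz and 18 Abcam fragments and ratios of 1.28 and 1.16. Kcnq1, a potassium channel gene, had ratios of 1.24 and 1.08. Phlda2, which limits placental growth, had 0.841 and 1.21. Tssc4 had 20 Santa Cruz, 12 Abcam and 105 Input fragments, and its Santa Cruz ratio of 1.65 (0.971 to 2.69) had an adjusted p of 0.827 by the exact test, while its Abcam ratio was 0.805 (0.403 to 1.47).

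In the Snrpn cluster, 5 genes summed to 0.943 (0.614 to 1.40) and 0.983 (0.673 to 1.40). Ndn and Magel2, both of the MAGE family, had Santa Cruz ratios of 1.04 and 1.07 and Abcam ratios of 0.631 and 0.869. Mkrn3, a ring finger gene, had 1.05 and 1.09. The remaining genes gave no ratio past the threshold either. Santa Cruz and Abcam ratios were 1.91 and 0.687 for Usp29 (a deubiquitinase) and 1.03 and 0.955 for Zim1 (a zinc finger gene). They were 1.24 and 1.08 for Grb10, an adaptor that damps insulin and Igf signalling, and 0.504 and 1.02 for Ddc, the aromatic amino acid decarboxylase gene. Blcap, which encloses Nnat, gave 1.36 and 1.38, and Commd1, which encloses Zrsr1, gave 0.936 and 1.19. Ppp1r9a (neurabin) gave 1.11 and 0.723, Slc38a4 (an amino acid transporter) 0.952 and 1.25, Inpp5f (an inositol phosphatase) 1.02 and 1.14, and Rasgrf1 (a Ras exchange factor) 0.869 and 0.705.

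Between the antibodies, 0 of 40 imprinted genes differed by the two-sided exact binomial test after adjustment over all promoters (background 0.00894%). At an unadjusted p under 0.05, 3 of 40 did (background 3.58%). Gnas, which codes for the alpha subunit of the stimulatory G protein, had 18 Santa Cruz, 7 Abcam and 103 Input fragments at its main start, with ratios of 1.52 (0.866 to 2.52) and 0.479 (0.188 to 1.02) and an exact p of 0.00794. Zrsr1, a U2af-related gene, had 14, 6 and 88 fragments, with ratios of 1.38 and 0.480 and an exact p of 0.0256. Ube3a, a ubiquitin ligase gene, was the reverse, with 1, 10 and 49 fragments, ratios of 0.177 (0.00440 to 1.04) and 1.44 (0.649 to 2.87) and an exact p of 0.0287. Each adjusted p was 1.

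**Figure D4:**
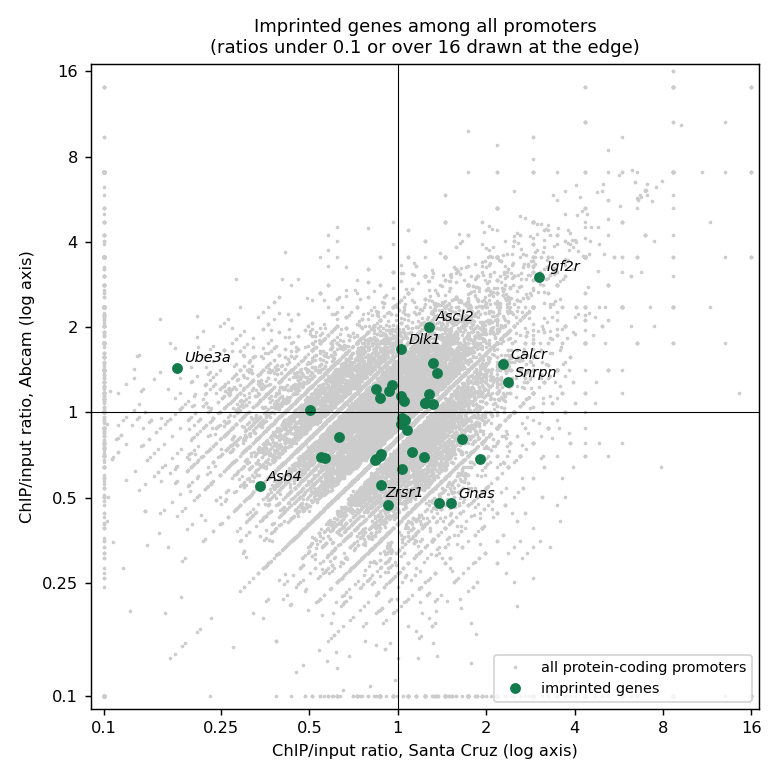
ChIP/input ratio within 2 kb of the start with Santa Cruz (horizontal, log axis) and Abcam (vertical, log axis) for 22359 promoters (grey) and the 40 imprinted genes (green), both ratios sharing the same Input. Igf2r lies at 3.03 and 3.01, Ube3a at 0.177 and 1.44, and Gnas and Zrsr1 at 1.52 and 1.38 with Santa Cruz against 0.479 and 0.480 with Abcam.

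Imprinted genes often use several starts of which some are imprinted, so every annotated start was tested as well. The 40 genes had 74 starts at least 1000 bp apart, 34 of them not the main start, in 19 genes. Adjusted over 30010 starts of all genes, 1 of 74 passed with Santa Cruz (the main Igf2r start, background 0.506%) and 2 of 74 with Abcam (background 0.896%). The second was a start of Gnas at chr2:174153269, on the plus strand 29909 bp downstream of the main start. It had 11 Santa Cruz, 36 Abcam and 76 Input fragments, with ratios of 1.26 (0.602 to 2.38) and 3.34 (2.18 to 5.02, adjusted p = 1.53e-05, exact binomial test). The antibodies differed there with an unadjusted exact p of 0.00308 and an adjusted p of 1, so the higher Abcam value had no counterpart past the threshold with Santa Cruz.

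By the known order of transcripts at this locus, the 4 annotated Gnas starts are those of Nesp, the extra-large form, exon 1A and the G protein subunit itself, and exon 1A lies in a germline DMR. The first start, at -13539 bp from the main one, had ratios of 0.991 and 0.927. The last, at chr2:174155507, had 11 Santa Cruz, 21 Abcam and 69 Input fragments, with ratios of 1.39 (0.661 to 2.64) and 2.14 (1.25 to 3.54, adjusted p = 0.209, exact test), and its window overlaps that of exon 1A. Abcam had peaks at chr2:174152251-174153100 (10 fragments where 1.43 were expected, exact Poisson p = 2.72e-06) and at chr2:174154201-174155150 (15 where 1.65 were expected, p = 3.05e-10). The second of these peaks lies between the exon 1A start and the last start, within the windows of both. The bins centred 30250 and 30750 bp after the main start held 0 and 1 Abcam fragments. The Abcam value at exon 1A thus includes the fragments of both peaks. No Santa Cruz peak lay within Gnas.

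**Figure D5:**
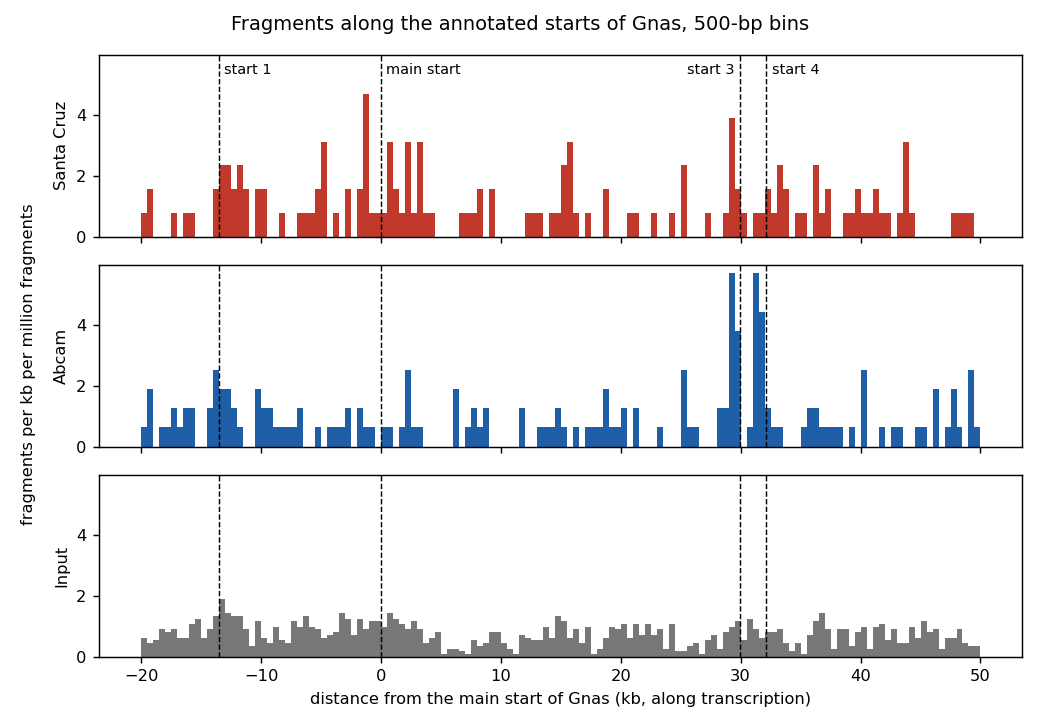
Fragments per kb and 1000000 library fragments in 500-bp bins from 20 kb before to 50 kb after the main Gnas start (horizontal axis, kb along transcription) for the joined Santa Cruz, Abcam and Input libraries, dashed lines marking the 4 annotated starts. Abcam rises on both sides of the third start, where the window held 36 Abcam, 11 Santa Cruz and 76 Input fragments.

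Inpp5f has an inner start at chr7:135832003, 77161 bp downstream of its main start on the plus strand, that gives rise to the imprinted transcript of the gene. It had 16 Santa Cruz, 17 Abcam and 67 Input fragments. The ratios of 2.07 (1.12 to 3.62, adjusted p = 0.604) and 1.79 (0.984 to 3.08, adjusted p = 0.705) did not pass the exact test, and a Santa Cruz peak spanned chr7:135831551-135832550 (9 fragments where 1.13 were expected, exact Poisson p = 3.07e-06). Within the bodies of the genes, Abcam peaks also lay in Asb4 (chr6:5373201-5373950) and Commd1 (chr11:22779801-22780400), away from their main starts by 40214 and 102282 bp. The share of all genes with a peak in their bodies was not counted, so these peaks and those inside Gnas and Inpp5f have no background. Long genes offer more windows to such a search. Some inner starts had an interval wholly below 1. With Santa Cruz these were of Igf2, in overlapping windows (0.269, 0.0545 to 0.809, and 0.290, 0.0586 to 0.874). With Abcam they were of Inpp5f (0.150, 0.00372 to 0.877), Plagl1 (0.371, 0.118 to 0.896) and Zim1 (0.243, 0.0287 to 0.918). The share of all starts with such an interval was not counted. Between the antibodies, 3 of the 34 starts other than the main ones differed at an unadjusted p under 0.05 (background 3.49% of all starts), namely those of Gnas at exon 1A, Commd1 and Igf2.

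Motif letters were counted at all starts. Within 500 bp of the start, 5 of 40 held a CACGTG and 16.8% of all promoters did. Igf2r was the 1 imprinted gene with 2 copies, as were 2.46% of all promoters. The other 4 were Kcnq1, Plagl1, Ppp1r9a and Slc38a4, with Santa Cruz ratios between 0.952 and 1.24 and Abcam ratios between 0.695 and 1.25. GCGGGA was found at 24 of 40 (47.5% of all promoters) and TGCCGC at 20 of 40 (35.1%). Among the CpG-rich imprinted genes, defined in the next paragraph, 81.8% held GCGGGA and 63.6% TGCCGC, close to the 80.6% and 59.9% of all CpG-rich promoters. Mest held 10 copies of TGCCGC and Nnat and Plagl1 6 each, where 0.148% of all promoters held 6 or more. These letters describe the windows and do not show that a factor binds there.

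CpG content is high at many imprinted starts. A GC content of at least 55% with a CpG observed to expected ratio of at least 0.6 within 500 bp was met by 22 of 40, and these had median ratios of 1.05 with Santa Cruz and 1.01 with Abcam, beside 0.891 and 0.946 for the 8626 CpG-rich promoters in all. Just upstream of the start, in the bin centred 250 bp before it, the 22 had 1.81 Santa Cruz, 2.10 Abcam and 1.34 Input fragments per kb and 1000000 library fragments. Without Igf2r these were 1.49, 1.69 and 1.33, and over all CpG-rich promoters 1.14, 1.33 and 1.31. In the bin centred 250 bp after the start the values without Igf2r were 1.63, 1.35 and 1.35, and over all CpG-rich promoters 1.32, 1.46 and 1.38. The imprinted value there was higher in Santa Cruz and lower in Abcam. These bins were given no interval, and no difference in them was tested. Summed over their windows without Igf2r, the CpG-rich imprinted genes had ratios of 1.03 (0.891 to 1.19) and 1.04 (0.909 to 1.18). The other 18 imprinted genes had a summed Santa Cruz ratio of 1.06 (0.883 to 1.27) and a summed Abcam ratio of 0.818 (0.677 to 0.981). All promoters short of the CpG-rich rule had medians of 0.899 and 0.939, and the Abcam interval includes the latter. These are medians of single ratios and not summed ratios.

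A further 19 imprinted protein-coding genes and 6 noncoding ones outside the list of 40 were measured the same way. The 19 had a median ratio of 1.04 with Santa Cruz and 0.729 with Abcam, and summed to 1.08 (0.901 to 1.27) and 0.971 (0.821 to 1.14). Klf14, a Krüppel-like factor gene of the Mest region, was the 1 of 19 that passed, with Abcam (background 1.11%). It had 16 Santa Cruz, 26 Abcam and 74 Input fragments, with ratios of 1.88 (1.02 to 3.26, adjusted p = 0.719) and 2.48 (1.52 to 3.92, adjusted p = 0.0204, exact test), and an Abcam peak at chr6:30907551-30908700. Klf14 and Peg12 were the 2 of 19 at 1.5 or more with both antibodies (background 6.18%). Peg12 had 9 Santa Cruz, 12 Abcam and 44 Input fragments, with ratios of 1.78 (0.763 to 3.69) and 1.92 (0.924 to 3.70). At the other end, Mcts2 had 10, 4 and 95 fragments. Its Abcam ratio of 0.297 (0.0792 to 0.785) was the 1 of the 19 with an interval wholly below 1 (background 3.14%). The Santa Cruz ratio of Mcts2 was 0.915 (0.425 to 1.76). Nap1l5 had an Abcam peak as well (chr6:58856401-58857400, 9 fragments where 1.16 were expected). An Abcam peak within 10 kb was found for 3.41% of all promoters. At the noncoding starts, Santa Cruz and Abcam ratios were 0.472 and 0.842 for H19, 0.628 and 0.849 for Meg3, 1.12 and 0.682 for Nespas, 1.01 and 1.29 for Rian, and 1.06 and 0.575 for Mirg. All of their intervals include 1, as does that of Airn.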

How the data were processed

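Pcgf6 ChIP-seq (2 antibodies, 2 replicates each) and 1 Input library of CCE ESCs were analysed. The deposited signal is the whole-number coverage of reads extended to 300 bp by the authors, per library and unscaled. The submitters' processing notes name Bowtie 0.1.2.7 and mm9. The treatment of duplicate reads is not given in the sources used here. Fragments were recovered from rises and falls of the depth with Python 3.11.15, numpy 2.4.6 and scipy 1.17.1. They were kept once per position, placed at their middle and counted within 2 kb of each gene's main TSS. The main TSS is the start that the largest number of a gene's coding transcripts use in the GENCODE annotation on NCBIM37. Ties went to the most upstream start. Replicates of an antibody hold largely the same fragments and were joined, so no SD or replicate test was made. Peaks were called in 600-bp windows every 50 bp against the largest of the genome rate and the Input rate over 5 kb and 10 kb. The p cutoff was 1e-05, with no adjustment for the number of windows. Steps were tested on simulated data. All 40 genes are named. Full values are given for those past the threshold, with a peak within 10 kb, or among the 5 highest and 5 lowest by both antibodies. The genes, the lists and the tests were chosen with earlier results of these data known. Alternatives were the window, the start, the scaling, the fragments kept, the peak cutoff and each replicate left out. Usp29 and Snrpn were not counted as starts at a germline DMR, because their annotated main start lies elsewhere. Kcnq1ot1 and Peg13 were not analysed here.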

Additional observations from a re-analysis of the deposited data

Results flagged for a closer look

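Some starts gave different fragment counts with the antibodies at an unadjusted p under 0.05 by the two-sided exact binomial test, each with an adjusted p of 1. Among the main starts these were Gnas (exact p = 0.00794), Zrsr1 (exact p = 0.0256) and Ube3a (exact p = 0.0287), with the values given in the report. Among the other starts, the Gnas start at exon 1A (exact p = 0.00308) was higher with Abcam. So was an inner start of Commd1, a gene of copper and NF-kappa-B regulation, at chr11:22878996 (exact p = 0.0258), with 4 Santa Cruz, 17 Abcam and 54 Input fragments and ratios of 0.644 and 2.22. An inner start of Igf2 at chr7:149845394 (exact p = 0.0275) had 3, 14 and 90 fragments and ratios of 0.290 and 1.10. Of 30010 annotated starts, 3.49% reached this p. The antibodies were sequenced in separate libraries, so antibody and library cannot be told apart.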

How the results depend on the processing

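No paired analysis was possible because the replicates of an antibody are largely the same fragments and count as 1 sample. Under the alternatives that had a test, Igf2r stayed past the threshold with both antibodies except in a window of 10 kb each side, where 0 imprinted genes passed with either antibody. In that window the Santa Cruz median fell to 0.947 and the summed ratio to 0.964. Ascl2 joined Igf2r with Abcam, making 2, in a window of 3 kb (1.01% of all promoters passed), with all fragments as deposited (2.78%), and with scaling by the median 10-kb window (1.29%). With all fragments as deposited, those shared by the replicates count more than once, so that setting overstates the evidence. Median scaling raised ratios 1.05-fold. The count of genes at 1.5 or more with both antibodies was 4 in a window of 1 kb (Calcr, Igf2r, Inpp5f and Snrpn), where the Abcam median was 0.783, 2 with all fragments and with median scaling (Calcr and Igf2r), and 2 to 3 with a replicate left out. It was 1 in a window of 10 kb, where the gene was Snrpn and not Igf2r. At a peak cutoff of 1e-04 Santa Cruz had 2 genes with a peak (adding Usp29), and at 1e-06 Abcam had 1. With either replicate left out Abcam had 1, losing Dlk1. Leaving out Igf2r and counting in Gnas were chosen after seeing the data. Some ratios short of the threshold crossed 1. Abcam ratios became 1.29 for Mest with the most upstream start, 0.306 for Slc22a2 in a window of 1 kb and 0.937 for Dlk1 in one of 10 kb, where the Santa Cruz ratio of Tssc4 became 0.947. These are the crossings that left the counting interval of the main value. Depth limits single genes, at about 9 ChIP fragments a window.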
